A study of Triticum aestivum with 24 samples.

Results

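In the degradome of bread wheat leaves, 10 of the 62 target loci of the deposited table carried annotations of a ribosomal protein or of proteins that act on organelle RNA: 7 copies of 30S ribosomal protein S3, 2 pentatricopeptide repeat (PPR) proteins and 1 mitochondrial transcription termination factor-like (mTERF-like) locus. The loci were taken by their gene IDs, from a list chosen with earlier results of these data known. They made up 12 of the 239 pairs of a miRNA and a cleavage position, 10 of the 92 cleavage sites and 5 of the 73 miRNAs. The plants were Triticum aestivum cv Chinese Spring descended by selfing from 1 individual, and leaves were harvested from boot-stage plants that had spent 5 days at 37 °C with ample water, or had stayed in control conditions at 18 °C in the light and 16 °C in the dark. The groups were heat and control, each sampled on day 0, day 1 and day 4 after the stress ended, with 4 libraries in each of the 6 groups and RNA from 18 plants combined in each library. The target table gives each miRNA and site 1 value and holds 0 columns per library. Which libraries contributed to a value is not given in the sources used, so neither treatment nor time was compared.

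Parallel analysis of RNA ends (PARE) sequences the 5′ ends of RNA fragments that have lost their cap, so that tags pile up where a transcript was cut. A plant miRNA guides an Argonaute protein to a complementary site in an mRNA, and slicing usually takes place opposite the middle of the miRNA, between its bases 10 and 11. Ribosomal protein S3 is a protein of the small ribosomal subunit. In grasses, organelle genomes carry a gene for their own S3, whereas the 7 loci here bear IDs of nuclear chromosomes. PPR proteins bind RNAs in chloroplasts and mitochondria and act in their editing, splicing, processing and stability, and mTERF proteins take part in transcription and RNA splicing in the same organelles. Which compartment the proteins of these 10 loci enter was not analysed here.

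The 5 miRNAs are shown because the pairing described further on turns on their letters. They are written 5′ to 3′ in DNA letters, with the seed (bases 2 to 8) in capitals.
miR1136, 3p form of the S3 loci: aGTTCTAGatacatccatt
miR2020b-1: aTAGCATCatccatcctaccc
miR9662-1.1-3p: tTGAACATcccagagccaccg
miR9662-1.4-3p: tTGAACATcccagagccacc
miR9662-1.7-3p: tTGAACATcccagagccac
The miR1136 form, called the S3 miRNA here, is 19 nt long and was listed only for the S3 loci, and miR2020b-1 is 21 nt long and was listed only for the PPR loci. The 3 miR9662 forms, of 21, 20 and 19 nt, share their 5′ end and were listed only for the mTERF-like locus. Among the 41 distinct seeds of the 73 miRNAs, the seed of the S3 miRNA and that of miR2020b-1 each belonged to 1 miRNA, and the remaining one belonged to the 3 miR9662 forms alone.

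The target sites are shown as the table gives them, 5′ to 3′ along the coding sequence, with the bases that do not form a Watson-Crick pair with the miRNA in capitals.
S3, all 7 copies: aaGggaTtgtatcAagaact
PPR, both loci: gggCaggatggatgatgctCt
mTERF-like, site of miR9662-1.1-3p: cCgtggctctggAatgttcaG
Within each of the S3 and PPR sets the site was identical in every copy. The S3 site had 35.0% G or C, against 57.1% in the PPR site and in the mTERF-like site, and the median of the 82 other sites was 47.6%.

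The miRNA precursors are shown to place the mature forms (capitals) in their hairpins.
precursor of the S3 miRNA: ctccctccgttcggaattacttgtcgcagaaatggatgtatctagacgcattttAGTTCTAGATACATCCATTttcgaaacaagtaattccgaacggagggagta
pre-miR2020b-1: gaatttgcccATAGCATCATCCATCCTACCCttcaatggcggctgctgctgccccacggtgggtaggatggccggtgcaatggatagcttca
pre-miR9662-1: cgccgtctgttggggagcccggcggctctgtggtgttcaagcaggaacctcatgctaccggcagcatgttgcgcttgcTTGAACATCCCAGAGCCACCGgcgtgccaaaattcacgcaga
The S3 miRNA occupies bases 55 to 73 of a precursor of 105 nt, miR2020b-1 bases 11 to 31 of 92 nt, and miR9662-1.1-3p bases 79 to 99 of 120 nt. According to the study, the S3 miRNA matched a very large number of precursor loci spread over all sub-genomes. The hairpin shown is therefore not its only possible origin. The hairpin of the S3 miRNA also contains the letters of miR1136-1070-5p and miR1136-1373-5p, which were listed for other loci. The 3 miR9662 forms listed for the mTERF-like locus all begin at base 79 of pre-miR9662-1 and differ in their 3′ ends.

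The S3 loci gave 7 identical readings. Each of TraesCS1D01G183300, TraesCS2A01G241300, TraesCS2D01G566300, TraesCS3D01G058000, TraesCS5D01G456600, TraesCS6D01G175000 and TraesCS7A01G289700 was listed with 7 tags at the cut (exact Poisson 95% interval 2.81 to 14.4) and 8 tags in the window around it. A single tag of the window thus lay away from the cut, and the share at the cut was 87.5% (Wilson 95% interval 52.9 to 97.8%). These intervals account for counting error alone, as tags copied by PCR can stem from 1 molecule. They also ignore that no count under 4 is listed. Since the site and the counts were the same in all copies, tags of the single copies cannot be told apart, and the 7 readings were treated as 1 measurement.

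The cut lay at position 124 of the coding sequence in 6 S3 copies and at position 100 in TraesCS3D01G058000. The difference of 24 nt equals 8 codons, and if position 1 is the first base of the coding sequence the cut falls on the first base of codon 42 in the 6 copies and of codon 34 in TraesCS3D01G058000. The binding site was listed as positions 117 to 135, and as 93 to 111 in TraesCS3D01G058000. This listed span holds 19 positions while the site holds 20 bases.

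The PPR loci TraesCS6A01G099100 and TraesCS6D01G083100 each had 4 tags at the cut (1.09 to 10.2) and 4 in the window, a share of 100% (51.0 to 100%). The cut was at position 959 of TraesCS6A01G099100, whose binding site spanned positions 948 to 968, and at position 1298 of TraesCS6D01G083100, whose site spanned 1287 to 1307. The 339 nt between these positions equal 113 codons, and under the same assumption both cuts fell on the second base of a codon, number 320 on 6A and number 433 on 6D. The listed positions thus share a frame, but as the site, counts and p-value were identical, tags of the 2 loci cannot be told apart.

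The mTERF-like locus TraesCS6B01G022900 had 4 tags at position 704 (1.09 to 10.2) and none elsewhere in the window of 4, a share of 100% (51.0 to 100%). The 3 miR9662 forms were paired with this same position, so their rows repeat 1 count. Their binding sites all ended at position 713 and began at 693, 694 and 695 with the length of the miRNA. The cut would fall on the second base of its codon.

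**Figure D1:**
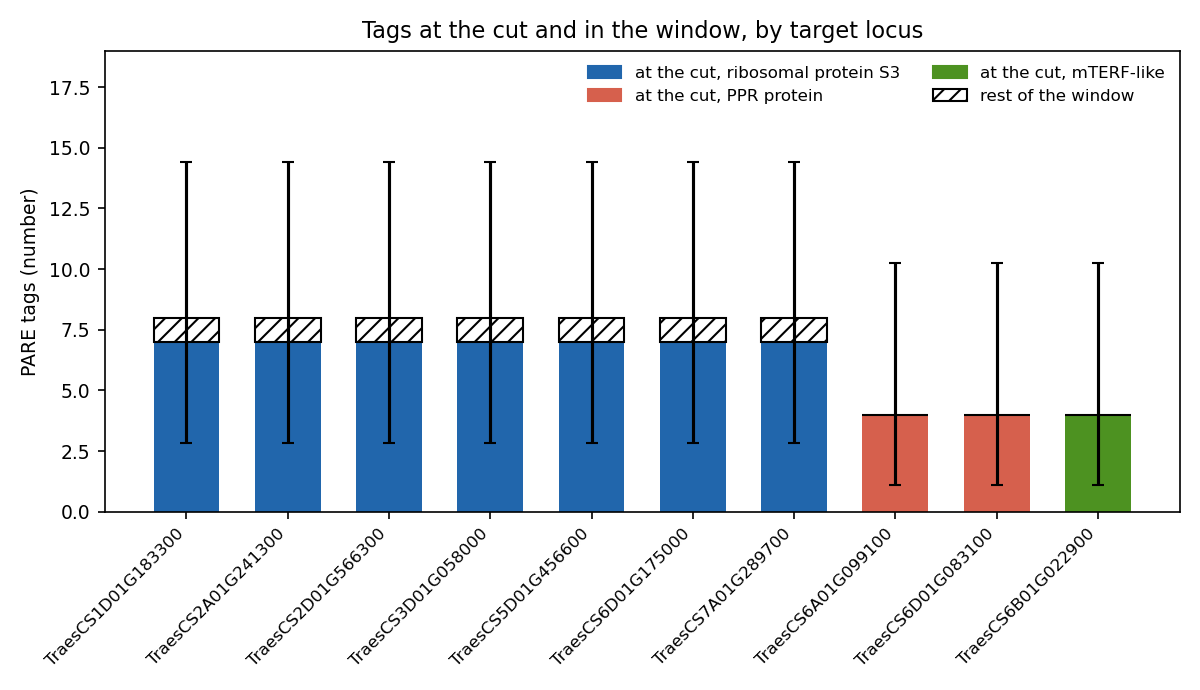
PARE tags (number) by target locus, with tags at the cut as filled bars, the rest of the window hatched on top and exact Poisson 95% intervals of the tags at the cut as error bars. All 7 S3 copies stand at 7 of 8 tags and the 2 PPR loci and the mTERF-like locus at 4 of 4, and all intervals overlap.

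The tag counts and window shares of the 3 sets were compared in tests that could not have shown a difference. No listed count is under 4, the count of the PPR and mTERF-like sites, and neither the count tests nor the count intervals allow for this. At the same total, no split with both counts at 4 or more is more uneven than 7 to 4. The p of the count tests therefore decides nothing. With identical copies counted once, S3 had 7 tags and PPR 4, a ratio of 1.75 (95% interval 0.445 to 8.15; two-sided exact binomial test, p = 0.549, adjusted p = 1 over 4 tests). The comparison of S3 with mTERF-like had the same counts, ratio and p. The window share was 87.5% for S3 and 100% for each of the other sets, a difference of -12.5 percentage points (Newcombe 95% interval -47.1 to 37.6; two-sided Fisher's exact test, p = 1 and adjusted p = 1 for both). The share tests rest on 1 tag off the cut, so they could not have shown a difference either. At 4 to 8 tags a site, these intervals leave room for large differences in either direction.

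All 7 S3 copies but neither PPR locus nor the mTERF-like locus had an abundance over 4, so 7 of the 10 loci passed this limit, against 64.5% of all 62 loci. The 7 copies stand for 1 distinct site. Set against the 82 sites of the rest of the table, the 7 tags of the S3 site exceeded 60 sites, equalled 6 and were exceeded by 16. In every comparison with these 82 sites, identical copies among them were each counted. The 4 tags of the PPR and mTERF-like sites were the smallest count in the table, shared with 29 of the 82 other sites and exceeded by 53. The other sites ranged between 4 and 27 tags with a median of 5, and the highest count belonged to TraesCS4B01G114400, annotated as anthranilate synthase alpha subunit, an enzyme of tryptophan synthesis, with 27 of 55 tags at its cut.

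Most or all tags of the window lay at the cut in the 3 sets, in windows of only 4 or 8 tags. This was not particular to them. All tags of the window lay at the cut in 3 of the 10 loci, against 37.1% of all loci, and the S3 site kept 7 of 8. Of the 82 other sites, 23 had a share at least as high as that of S3, 20 of them 100%, while 30 had a share under 50%. The median share of these sites was 66.7% (26.1 to 100%).

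Categories in the table rank how a peak stands among the tags of its transcript, 0 being the most prominent. The S3 copies and the mTERF-like locus were in category 0, 8 of the 10 loci against 91.9% of all loci. The PPR loci were in category 3 although their window held no other tags. A count of 4 of 4 occurred in 26 pairs of category 0, over 11 loci, and in 38 pairs of category 3, over 4 loci, of which the PPR loci were 2.

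The deposited p-values did not follow the order of the scores in these sets. The mTERF-like rows had a deposited p-value of 0.0293 with miR9662-1.1-3p and of 0.0338 with the 2 shorter forms, the 3 highest p-values of the whole table, ahead of 0.0280 at TraesCS6B01G101600. Their scores, the penalty for imperfect pairing, were 2.5, 2.5 and 1.5, and 59 of the 82 other sites scored higher than 1.5. The S3 copies had a p-value of 0.0189 with a score of 3.5, and 8 of the 82 other sites had a higher p. The PPR loci had a p-value of 0.00109 with a score of 2.0, and 53 of the 82 other sites had a higher p. With the same 4 of 4 tags, the PPR p was thus lower than the mTERF-like p, but the 2 sets differ in category. Pairs with 4 of 4 tags had deposited p-values of 0.000166 to 0.00109 in category 3, that of PPR. In category 0, that of mTERF-like, they had 0.000145 to 0.0338. The PPR p was the highest of category 3 at these counts, and the part of the category in the p-values was not tested. These p-values come from the authors' tool and are not a test across libraries. Under 0.01 were 2 of the 10 loci, both PPR, against 71.0% of all loci, and the median p was 0.0189 over the 10 loci and 0.00275 over the 52 others.

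The corrected p-values, which equal the p-value divided by the window share to within rounding, were 0.0215 for S3, 0.0011 for PPR and 0.0293 to 0.0338 for mTERF-like. Beyond rounding, only the S3 value differed from its p-value, its window alone holding a tag off the cut.

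**Figure D2:**
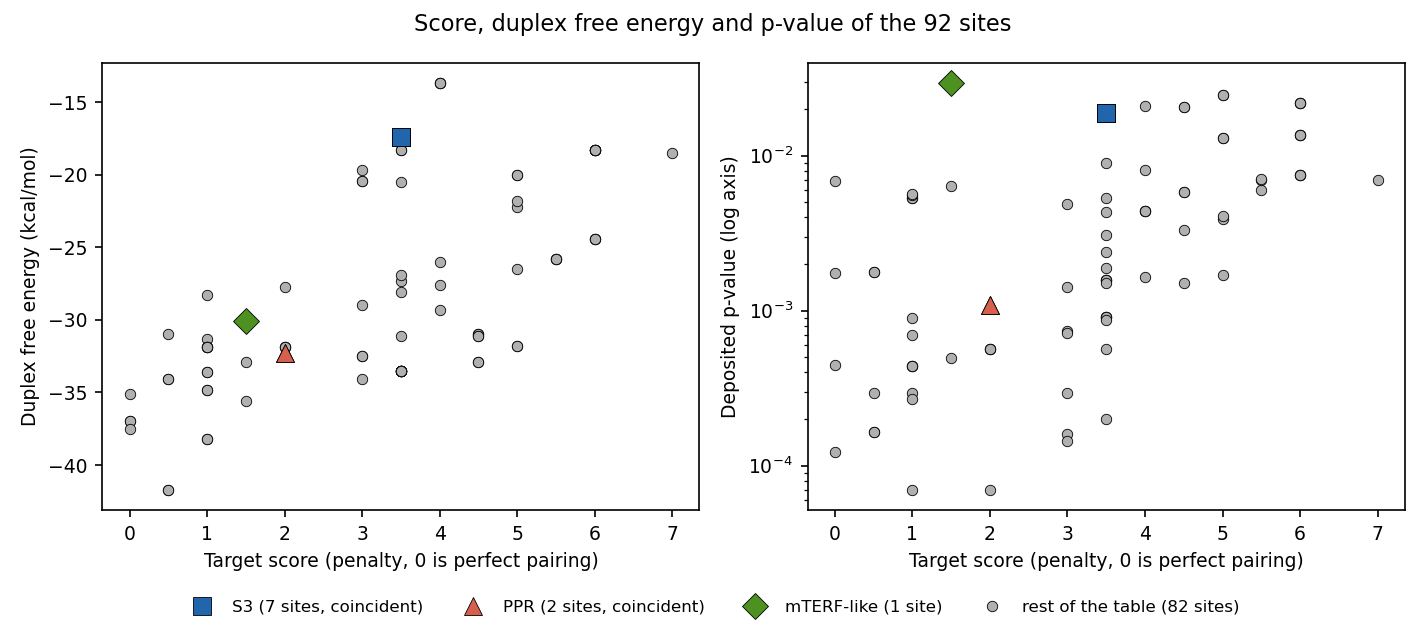
Target score (penalty) on the x axis of both panels, against computed duplex free energy (kcal/mol, left) and deposited p-value (log axis, right), 1 symbol per site and the lowest score, lowest energy and lowest p where a site has several miRNAs. The S3 site lies at -17.4 kcal/mol with a score of 3.5, near the top of the left panel, and the mTERF-like site, with a p-value of 0.0293, is the highest point of the right panel.

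The S3 pairing was the only one with a bulge. The S3 miRNA formed 17 Watson-Crick pairs with the site, with mismatches opposite its bases 7 and 17, no G:U pair, and 1 target base, the seventh of the site, left unpaired between miRNA bases 13 and 14. A bulge was found in 7 of the 10 loci, all S3, against 11.3% of all loci, and in 0 of the 52 other loci, and it was the same bulge in 7 identical sites. The mismatch opposite base 7 lies in the seed. Among 124 distinct duplexes of the rest of the table, 1 had a mismatch at base 7, or 0.806%, while 19 had one at base 17, or 15.3%.

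miR2020b-1 formed 19 pairs with the PPR site, with mismatches opposite bases 2 and 18 and no G:U pair. Its mismatch at base 2 is in the seed as well, where 12 of the 124 other duplexes, or 9.68%, had one, and base 18 was mismatched in 22 of them, or 17.7%. miR9662-1.1-3p formed 18 pairs with the mTERF-like site, with mismatches opposite bases 9 and 20 and a G:U pair at base 1. The form of 20 nt kept both mismatches with 17 pairs, and the form of 19 nt also had 17 pairs but ended before base 20 and so had 1 mismatch and a score of 1.5. Base 9, next to the cut, was mismatched in 6 of the 124 other duplexes, or 4.84%.

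Counting 1 for each mismatch and 0.5 for each G:U pair gave the score of all 5 PPR and mTERF-like pairs exactly, and of 160 of the 232 pairs without a bulge, the other 72 having a higher score. In the S3 pairs the 2 mismatches account for 2 of the 3.5 points in this way, and 1.5 points are left for the bulge and anything else the tool weighs.

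**Figure D3:**
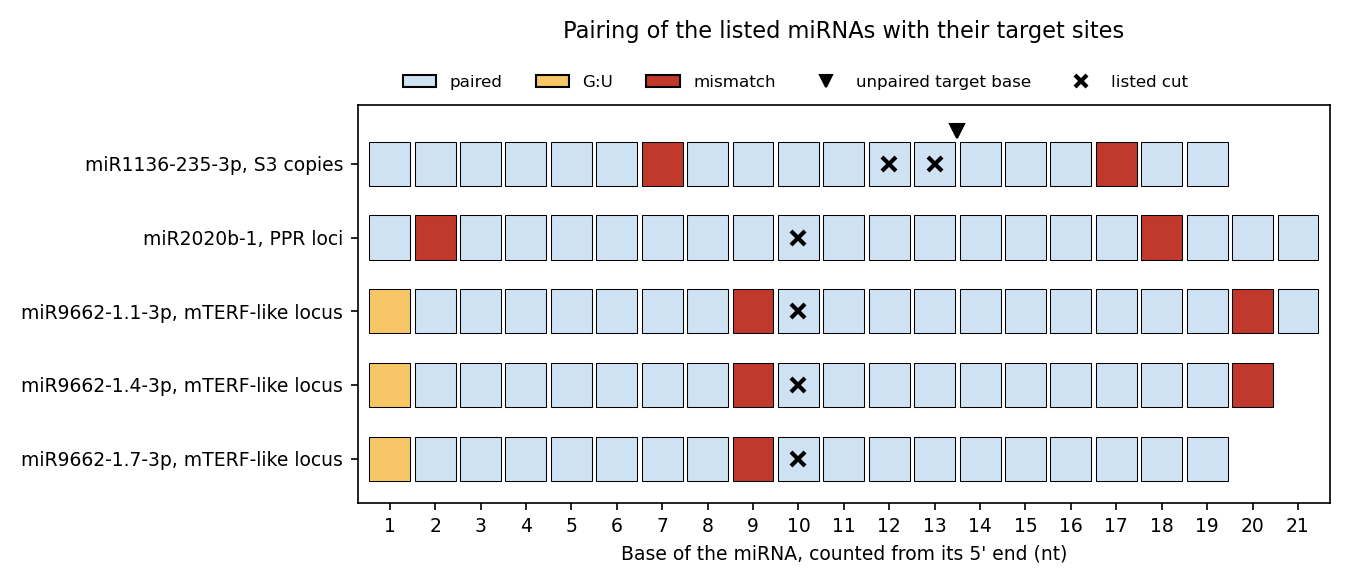
State of each base of the 5 miRNAs against their target sites (x axis, base from the 5′ end, nt), with mismatches red, G:U pairs yellow, the unpaired target base as a triangle and the base opposite the listed cut as a cross. In the PPR and mTERF-like rows the cross is at base 10, and in the S3 row it is at base 12 or 13, according to the end of the site from which the base is counted.

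The listed cut lay opposite base 10 of the miRNA in the PPR and mTERF-like sites, in all 5 of their pairs. In the S3 copies it lay opposite base 12 when the site is anchored at its listed end and opposite base 13 when anchored at its listed start, the listed span being 1 position shorter than the site. Under either count, 3 of the 10 loci were cut opposite base 10 or 11, against 82.3% of all loci, and the same 3 opposite base 10 itself, against 59.7%. A locus counts here if any of its pairs, at any listed cut, meets the rule. Each S3 copy had only 1 pair, while some other loci had as many as 18, so the shares are not on equal terms. Of the 227 pairs in the rest of the table, 96 were cut opposite base 10, 69 opposite base 11, 52 opposite base 12 and 10 opposite base 13.

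The S3 duplex was weak in computed free energy. It had -17.4 kcal/mol, 62.1% of the -28.0 kcal/mol of the same miRNA with a perfect site, and 79 of the 82 other sites had a stronger duplex. The 3 weaker ones were copies annotated as a carboxyl-terminal-processing protease. The S3 miRNA has 19 nt, and the 20 pairs of the rest of the table with a miRNA of 19 nt lay between -37.1 and -18.3 kcal/mol, with perfect duplexes of -37.5 to -32.6 kcal/mol, all stronger than the -28.0 kcal/mol of the S3 miRNA. The part of miRNA length and base composition in the S3 value was not tested. The PPR duplex had -32.3 kcal/mol, 83.0% of perfect pairing, and 30 of the 82 other sites were stronger. The mTERF-like duplexes had -30.1, -30.1 and -29.0 kcal/mol with the forms of 21, 20 and 19 nt, or 72.4, 76.8 and 80.8% of perfect pairing, with 46 of the 82 other sites stronger than -30.1. The score did not separate S3 in this way, since 34 of the 82 other sites scored below 3.5, 16 at it and 32 above it.

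The chromosome spread of the S3 copies was wide. They lay on 7 chromosomes, 1D, 2A, 2D, 3D, 5D, 6D and 7A, with 1 copy on each, from 6 of the homoeologous chromosome groups and none from group 4. The D sub-genome held 5, the A sub-genome 2 and the B sub-genome 0. Only 2A and 2D, within group 2, held S3 copies on more than 1 sub-genome. The PPR loci lay on 6A and 6D, and the mTERF-like locus on 6B. Taken as 10 loci, 6 were on D, 3 on A and 1 on B, whereas the 52 other loci were 10 on D, 17 on A, 24 on B and 1 unplaced. No test was made of this difference, as the copies of a set share 1 site.

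**Figure D4:**
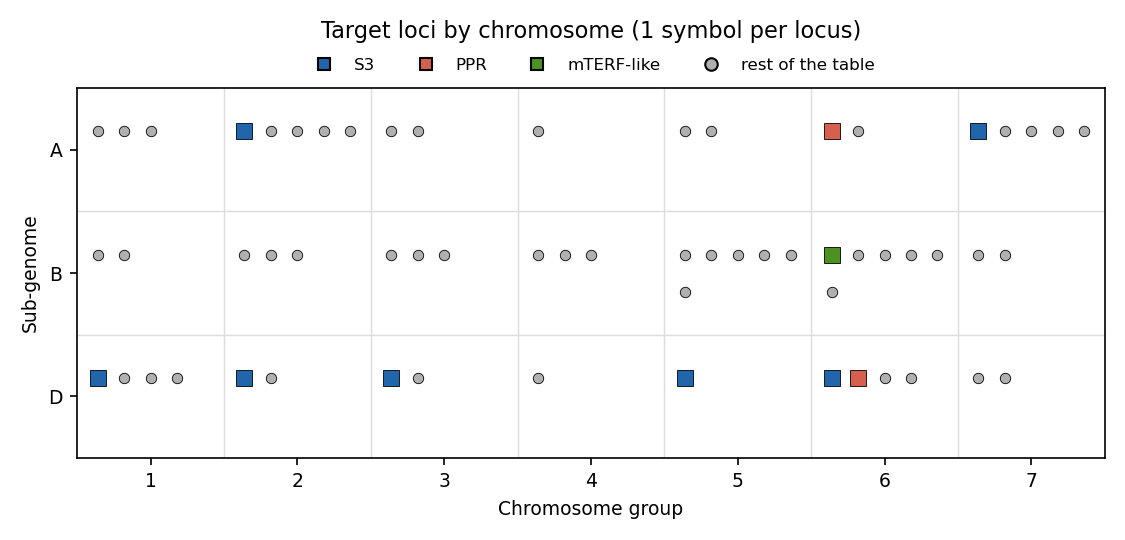
Target loci by chromosome group (x axis) and sub-genome (y axis), 1 symbol per locus, squares for the S3, PPR and mTERF-like loci and grey circles for the rest of the table (1 unplaced locus is not drawn). The 7 S3 loci occupy 7 chromosomes of A and D and none of B, and the PPR and mTERF-like loci share group 6.

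Grouping the 62 loci by identical miRNAs, site sequences, counts and p-values gave 39 sets, 13 of them with more than 1 locus. The S3 set of 7 was the largest and the next had 3 loci.

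Loci under the same families were few. In the deposited table, the S3 miRNA, miR2020b-1 and the miR9662 forms were listed for 0 loci beyond the 10. The miR2020 and miR9662 families had none either. The study itself reports more target loci and more miRNAs than this table holds. Its selected targets also give further miR9662 forms for mTERF-like proteins. The miR1136 family had 6 other loci, under 5 other miRNAs, with 4 to 6 tags at the cut, window shares of 26.1 to 55.6% and no bulge. Of these, 4 loci had 6 tags, and the 3 of them with the lowest p-values were an F-box protein locus, TraesCS5B01G013700, with 6 of 15 tags at position 1333 (40.0%, 19.8 to 64.3%), a B3 domain locus, TraesCS3B01G610700, with 6 of 14 at position 247 (42.9%, 21.4 to 67.4%), and a Smad/FHA domain locus, TraesCS6B01G449300, with 6 of 16 at position 984 (37.5%, 18.5 to 61.4%). F-box proteins are substrate receptors of ubiquitin ligases and B3 domains bind DNA. The fourth, named after its values were seen, was a cysteine-rich receptor-like protein kinase locus, TraesCS2A01G360000, with 6 of 23 tags at position 442 (26.1%, 12.5 to 46.5%). All 4 cuts lay opposite base 12 of the miR1136 form listed for them. The same tags at positions 1333, 247 and 984 were also listed under other miRNAs, with 4, 6 and 7 miRNAs in all. At 1333 and 984 the cut lay opposite base 10 of another listed miRNA. The S3 duplex had -17.4 kcal/mol, against -24.6, -24.6 and -24.4 kcal/mol for the miR1136 forms in the first 3 loci and -18.5 kcal/mol in the kinase locus. The window share of 87.5% (52.9 to 97.8%) of S3 was higher in value than all 4, and its interval overlapped those of the first 3 but not that of the kinase locus, a difference that was not tested.

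Of the 62 loci, 11 had an annotation with a word of a list of 14 on ribosomes, organelles, translation, RNA binding and splicing, the 10 described here and 1 other. The other was TraesCS6B01G256600 on 6B, annotated as an RNA-binding protein, with 5 of 8 tags (62.5%) at position 845 under miR1120-1193-3p, a score of 4.0, a p-value of 0.00164 and -29.3 kcal/mol. The list has no word for ribosomal RNA and so leaves out TraesCS7A01G151900, annotated as a 23S rRNA methyltransferase and noticed after its values were seen, with 4 of 6 tags.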

How the data were processed

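Per the study's methods, degradome reads of 19 to 21 nt were collapsed into tags and mapped by the authors with sPARTA to the coding sequences of IWGSC RefSeq v1.0, and targets were predicted with miRferno. The deposited peak abundance is a whole-number tag count, the window abundance a deposited tag signal around the cut (window named as 10 nt), and the window fraction a deposited fraction of the 2. The deposited score is a pairing penalty, and the deposited p-value belongs to the site. The authors state an abundance over 4, but 123 rows were at exactly 4. Library depth is unknown from the table, and pooling over libraries is not given in the sources used here, so no comparison of heat with control was made.

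The 10 loci were selected by gene ID without transcript suffix. The members and lists were chosen with earlier results of these data known. All 10 loci were named, with up to 3 others of the same families by tags (ties to the lower p), of an annotation word list of 14 words, and the site with the most tags. Pairing was read from the aligned sequences in the table, and miRNA bases were counted from 1 at the 5′ end. Precursor letters came from the study's supplementary list. Free energies were computed with RNAduplex (ViennaRNA 2.7.2). Sites with several rows took the highest count, lowest score, lowest p and lowest energy. Poisson, Wilson and Newcombe 95% intervals and exact tests used scipy 1.17.1 and statsmodels 0.14.6 in Python 3.11.15, with Benjamini-Hochberg adjustment over 4 tests. Only the reading of the pairing and the exact binomial test were checked on simulated data, with counts that had no lower limit. Of the 62 IDs, 0 matched the names table of a later assembly, so annotations are the authors'.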

Additional observations from a re-analysis of the deposited data

How the results depend on the processing

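Of 14 alternatives, 10 kept the direction and the side of the threshold or a count within 1.5 times. Taking the tags of the whole window gave a ratio of 2 for S3 over either other set (two-sided exact binomial test, p = 0.388). As no listed window holds under 4 tags, this test could not have given a smaller p at the same total. Summing tags over copies gave 49 for S3 and 8 for PPR, a ratio of 6.125 (exact p = 2.72e-08), and 12.25 against the 4 of mTERF-like (exact p = 7.05e-11); this counts the same tags once per identical copy. With 1 count per set of identical copies, 1 site in place of 7 loci had an abundance over 4, and 1 in place of 2 had a p-value under 0.01. An abundance of at least 4 admitted all 10 loci. No listed count is under 4, so this limit admits every locus of the table by construction. This setting is among the 10 alternatives that kept the result, but it could not have excluded any locus.

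No paired analysis was possible because the table has no column per library, so replicate numbers carry no values, and leaving out a replicate was not possible either. Counts of 4 to 8 tags limit every comparison.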
